A study of Mus musculus with 4 samples.

Results

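Clusters of Pitx1 ChIP-seq peaks were examined in the hindlimb buds of E11.5 mouse embryos (strain ICR, wild type). ChIP-seq (chromatin immunoprecipitation followed by sequencing) maps where a protein sits on DNA by pulling down fixed chromatin with an antibody. The series holds 2 Pitx1 ChIP libraries, replicates 1 and 2, and 2 libraries of input chromatin that went through no pulldown. All 4 libraries came from tissue of the same genotype, strain and stage, and the material of 3 ChIPs went into the Pitx1 libraries. A replicated region is the union of peaks that overlap by 1 bp or more between replicates 1 and 2. At least 3 such regions in a row on an autosome, with neighbouring midpoints less than 10 kb apart, make a cluster. By this rule 608 of the 10145 replicated regions on the 19 autosomes (5.99%), out of 10274 on all chromosomes, lay in 185 clusters.

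Pitx1 is a paired-type homeodomain transcription factor made in the hindlimb field and not in the forelimb, and it is known for giving the hindlimb its identity. Homeodomain factors bind short, frequent DNA motifs, and genes that pattern the limb are commonly controlled by several enhancers spread over large stretches around them. Groups of binding sites close together are a familiar feature of such regulatory DNA. The data here are peak positions and peak scores, so they say where chromatin was enriched and not what the DNA does.

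The members were chosen from the peak calls themselves. Their number, spacing and scores are therefore given as descriptions, without a test, beside the same values over all autosomal replicated regions or over regions outside clusters. The score is the peak caller's own value in the authors' lists, and a region with several peaks from a library takes the highest of them. A ratio of scores is a ratio on the caller's scale and not a ratio of reads or of bound protein. The lists give no read numbers, so the depth behind each peak is unknown. Coordinates are those of mm9 and count from 1, and genes and sequence are left out because the gene tables used here are of another build.

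Clusters were found on every autosome, in very unequal numbers. Chromosome 3 held 22 clusters, chromosome 1 held 18, chromosome 4 held 16 and chromosome 6 held 15, while chromosomes 13 and 17 held 5 each and chromosome 19 held 4. Chromosomes differ in length, and per 100 Mb the number ran from 4.16 on chromosome 13 to 13.8 on chromosome 3. Chromosomes 17 and 19 stood at 5.25 and 6.53, above chromosome 2 at 4.41. Their shares of replicated regions in clusters were 4.76% and 4.55%. On chromosome 3, 73 of 765 replicated regions (9.54%, 95% Wilson interval 7.66 to 11.8%) were clustered. On chromosome 2 it was 26 of 756 (3.44%, 2.36 to 4.99%). Chromosome 13 had a higher density of replicated regions than chromosome 4, at 4.74 against 4.30 per Mb, and a smaller share of them in clusters, at 3.51% (2.28 to 5.36%) against 8.22% (6.37 to 10.5%). The density of regions on a chromosome and the share found in clusters thus did not run in the same order. These intervals reflect counting error alone and are too narrow, since regions of 1 cluster are not independent.

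**Figure D1:**
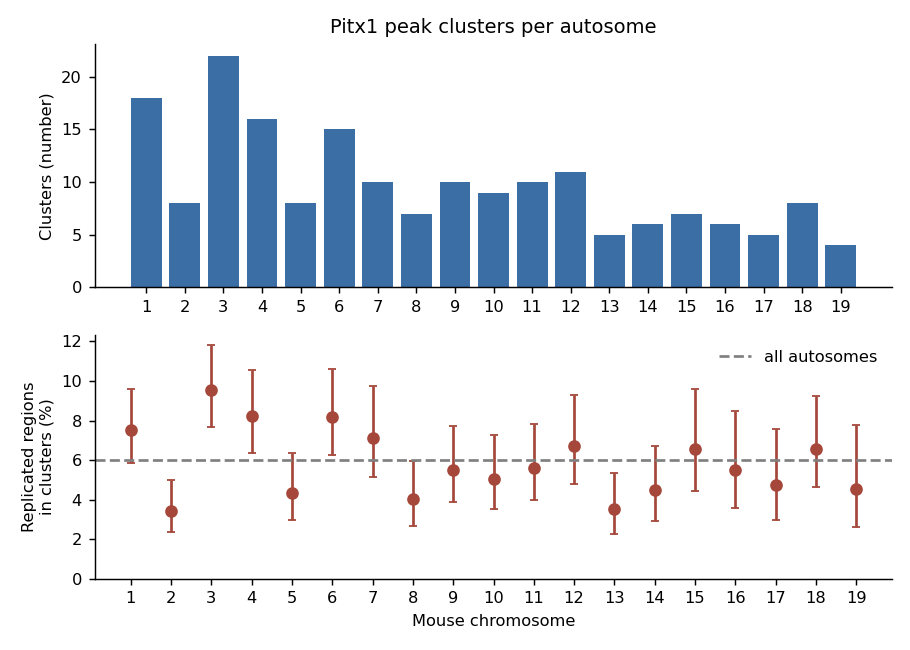
Number of clusters on each autosome (upper panel, bars from 0) and percentage of replicated Pitx1 regions that lie in clusters (lower panel, points with 95% Wilson intervals). The dashed line is the share over all autosomes, 5.99%; chromosome 3 lies highest at 9.54% and chromosome 2 lowest at 3.44%.

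Some stretches held several clusters. When clusters under 1 Mb apart were joined, a limit chosen after the data were seen, the 185 clusters fell into 145 stretches. Of these, 118 held 1 cluster, 19 held 2, 6 held 3, 1 held 4 and 1 held 7. The stretch with 7 clusters was on chromosome 1 from 163944773 to 165838496 and held 23 replicated regions and 24 listed positions. The highest scores of its clusters ran from 208 to 360.2 in replicate 1 and from 291 to 733 in replicate 2. A member in the highest score decile of all peaks was present in 6 of these 7 clusters in replicate 1 and in all 7 in replicate 2. Over all 185 clusters it was 86 (46.5%) in replicate 1 and 118 (63.8%) in replicate 2. The stretch was singled out for its number of clusters, and the difference was not tested. The stretch with 4 clusters was on chromosome 3 from 66177497 to 66744199 and held 13 regions.

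Those with 3 clusters lay on chromosomes 3 (55184257 to 55593144), 4 (105204824 to 105782582), 6 (52166605 to 52752792), 7 (143236682 to 144500564), 9 (87212180 to 87967530) and 12 (8853187 to 9759584). They held 9 to 11 regions each. In 9 cases a cluster began within 100 kb of the end of the one before it. The closest were the clusters on chromosome 6 from 52166605 to 52183831 and from 52194285 to 52198515, 10.5 kb apart. The next closest were on chromosome 3, where clusters of 3 and 4 regions ended at 66186051 and began at 66204742, 18.7 kb apart.

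Most clusters were small and compact. There were 142 clusters of 3 regions, 36 of 4, 6 of 5 and 1 of 8. Their length, first base to last base, had a median of 11.6 kb (quartiles 8.56 and 15.4 kb) and ran from 2.64 to 30.0 kb. Member regions covered a median of 28.4% of the span, and they covered more than 50% in 26 clusters (14.1%). All spans together came to 2272 kb, or 0.0921% of the autosomes up to their last peak.

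Within clusters the 423 gaps between neighbouring midpoints had a median of 4.65 kb (quartiles 2.60 and 7.07 kb), against 88.7 kb (26.7 and 258 kb) for all 10126 autosomal gaps. The first value lies under 10 kb by the rule. Gaps were not piled up at 1 distance: 78 were under 2 kb, 99 were 2 to 4 kb, 101 were 4 to 6 kb, 70 were 6 to 8 kb and 75 were 8 to 10 kb. Over all autosomal neighbours the count per 2 kb was highest at 2 to 4 kb, with 305 gaps, and fell to 182 at 10 to 12 kb and 102 at 38 to 40 kb, with no step at the 10 kb limit. The 861 autosomal gaps under 10 kb that are not in clusters join pairs of regions with no other region near enough.

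**Figure D2:**
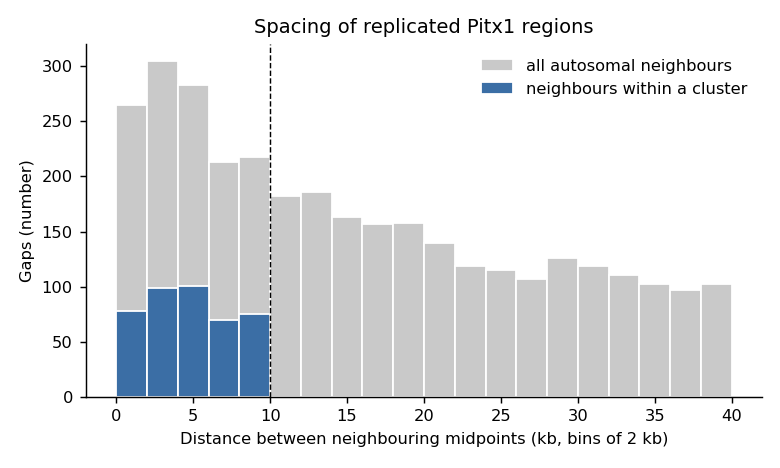
Number of gaps between neighbouring midpoints of replicated Pitx1 regions in bins of 2 kb, for all autosomal neighbours (grey, up to 40 kb) and for neighbours within a cluster (blue, drawn in front). The dashed line is the 10 kb limit; counts decline gradually from 305 at 2 to 4 kb to 102 at 38 to 40 kb.

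Gaps within a cluster often differed in size, which was not compared with other sets of regions. The largest gap was more than 2 times the smallest in 103 of 185 clusters (55.7%), with a median ratio of 2.10. The most even cluster was on chromosome 9 from 22333888 to 22353958, with gaps of 9.53 and 9.55 kb. The least even was on chromosome 6 from 30643641 to 30654357, with gaps of 0.842 and 8.84 kb.

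Some neighbours were nearly adjacent. Edge to edge, the median distance was 3402 bp, but 82 of 423 gaps (19.4%) were under 1000 bp, 58 were under 600 bp, the upper end of the stated fragment size, and 22 were under 200 bp. In 73 clusters (39.5%) at least 1 pair of neighbours was under 1000 bp apart. When regions under 1 kb apart were merged first, 127 clusters with 413 regions were left. Whether adjacent regions are 1 enriched stretch split by the caller was not tested.

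The tightest clusters showed this most. On chromosome 18 from 63400939 to 63403579, 3 regions lay within 2.64 kb, with gaps of 0.735 and 0.970 kb between midpoints and members covering 88.0% of the span. Their scores were 72.6, 144 and 91.5 in replicate 1 and 144, 62.5 and 103 in replicate 2, none in the highest score decile of its list. The next were on chromosome 19 from 56090474 to 56094284 (span 3.81 kb, highest scores 107 and 358 in replicates 1 and 2) and on chromosome 6 from 52194285 to 52198515 (span 4.23 kb, highest scores 74.6 and 209). In all 3 the strongest member differed between the replicates.

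At the other end, the widest spaced clusters had mean gaps of 9.63 kb (chromosome 4, 154105116 to 154125273), 9.54 kb (chromosome 9, 22333888 to 22353958) and 9.42 kb (chromosome 16, 94448872 to 94468563). The first of these was also the cluster closest to the limit, since a gap of 9999.5 bp joined it. The next just inside were on chromosome 4 from 105204824 to 105223257, with a gap of 9.99 kb, and from 108016929 to 108036573, with 9.82 kb. Just outside were a run on chromosome 9 from 87263698 to 87283051, whose larger gap was 10.03 kb, and overlapping runs on chromosome 3 from 55299180 to 55321056, whose larger gap was 10.08 kb. The excluded runs include very strong regions. The middle region of the chromosome 9 run scored 705 in replicate 1 and 964 in replicate 2, and the first region on chromosome 3 scored 1215 and 1813.

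Clusters usually had other replicated regions at a moderate distance. The nearest region outside a cluster was a median of 32.2 kb away (quartiles 17.3 and 63.6 kb). In 57 clusters (30.8%) it was under 20 kb away, and in 24 (13.0%) there was none within 100 kb. Spans also held peaks that were called in 1 library only and so took no part in the rule. There were 47 such peaks of replicate 2 in 38 clusters and 8 of replicate 1 in 7 clusters. For replicate 2 that is 20.7 per Mb of cluster span, against 5.75 per Mb over the autosomes. The rule picked the spans for closely spaced peaks of the same lists, so a higher density there may be partly built in. This difference was not tested. The clusters on chromosome 1 from 140734132 to 140751148 and on chromosome 6 from 51121131 to 51132171 held 3 each, the most in any span.

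At the median, clustered regions were somewhat stronger and wider than regions outside, with wide overlap. In replicate 1 their scores ran from 50.1 to 981 with a median of 110.0. Regions outside ran from 50.03 to 3100 with a median of 96.9. In replicate 2 clustered regions ran from 50.5 to 1998 with a median of 173, and regions outside from 50.06 to 3100 with a median of 149. The highest score of each replicate thus lay outside clusters. Median width was 950.0 bp in clusters and 857 bp outside. The scores share libraries with the calls that chose the members, and these differences were not tested.

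A region was called strong when its score was in the highest decile of all peaks in a list. In replicate 1, 117 clustered regions (19.2%) were strong, against 14.4% of all autosomal replicated regions. In replicate 2 it was 170 (28.0%) against 23.1%, and in both it was 89 (14.6%) against 10.6%. These shares were a few percentage points above those of all regions. Of the 185 clusters, 86 had at least 1 strong member in replicate 1 and 118 had one in replicate 2. Across clustered regions Spearman's rho between replicate scores was 0.589 (n = 608), and outside clusters it was 0.556 (n = 9537). These are descriptions across regions of the same libraries.

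The strongest member of a cluster was taken as the region whose ranks in the 2 lists had the smallest sum. Its place among all autosomal replicated regions is given as a percentile of that sum, where 0 is strongest. The ranks were not scaled to list length. The replicate 2 list is longer, at 25027 peaks against 14753, so replicate 2 weighs more in the sum. With scaled ranks the chosen member could differ in some clusters, and this was not tried. Strongest members had a median percentile of 15.1 (quartiles 6.76 and 31.0), and the other 423 members had a median of 55.5 (34.5 and 79.2). The median score was 201 for strongest members and 90.7 for the rest in replicate 1, and 329.5 and 131 in replicate 2. Their median width was 1141 bp against 905 bp, and the strongest member was also the widest in 96 clusters (51.9%). A gap between the strongest and the rest is built into the choice.

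The fitting comparison is therefore with other sets of 3. Regions outside clusters were taken in genome order as 3173 consecutive sets of 3 that do not overlap. The strongest of 3 had a median percentile of 16.5 in clusters and 21.1 in the other sets, the second had 43.7 and 50.8, and the weakest had 76.9 and 79.0. The quartiles overlapped at each place. From strongest to weakest the percentile range was a median of 51.4 in clusters and 48.3 in the other sets. Neighbours within a cluster differed by a median of 28.2 percentiles, against 28.1 for all autosomal neighbours. Members of a cluster were thus about as unequal in strength as neighbouring regions in general.

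**Figure D3:**
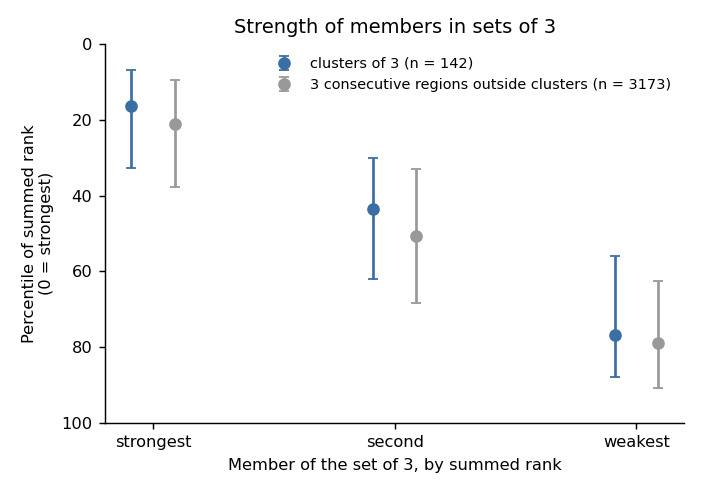
Percentile of summed rank (0 is strongest, axis inverted) of the strongest, the second and the weakest region in 142 clusters of 3 (blue) and in 3173 sets of 3 consecutive regions outside clusters (grey). Points are medians and bars run between the quartiles; strongest members stand at 16.5 and 21.1, weakest members at 76.9 and 79.0.

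The lead of the highest score over the second was modest in most clusters. The median ratio was 1.56 in replicate 1 (quartiles 1.24 and 2.08) and 1.61 in replicate 2 (1.21 and 2.97). In clusters of 3 it was 1.55 and 1.74, against 1.58 and 1.78 in the sets outside. The highest score was more than 2 times the second in 51 clusters (27.6%) in replicate 1 and in 72 (38.9%) in replicate 2. In 28 clusters (15.1%) the same member led by more than 2 times in both.

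The replicates named the same strongest member in 123 of 185 clusters (66.5%, Wilson interval 59.4 to 72.9%). In clusters of 3 it was 97 of 142 (68.3%, 60.3 to 75.4%). In the sets outside it was 1960 of 3173 (61.8%, 60.1 to 63.4%). This difference was not tested, and the intervals treat sets of regions from the same 2 libraries as independent. All 3 members had the same order in both replicates in 50 clusters of 3 (35.2%) and in 1180 sets outside (37.2%). When the strongest member was chosen in replicate 1 alone, its replicate 2 score was above the median of its neighbours in 156 of 185 clusters (84.3%). Over clusters of 3 this was so in 120 of 142 (84.5%, 77.7 to 89.5%), against 2282 of 3173 sets outside (71.9%, 70.3 to 73.5%), a difference that was not tested. The ratio of that score to the neighbours' median was a median of 1.83 over the 142 clusters of 3 and 1.697 over the sets outside. Chosen in replicate 2, the strongest member had a replicate 1 score that was a median of 1.58 times that of its neighbours in clusters of 3 and 1.51 times in the sets outside.

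The strongest member was in the middle about as often as in other sets. In clusters of 3 it was in the middle in 47 of 142 (33.1%, 25.9 to 41.2%) and at an end in the other 95. In sets outside it was in the middle in 1042 of 3173 (32.8%).

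**Figure D4:**
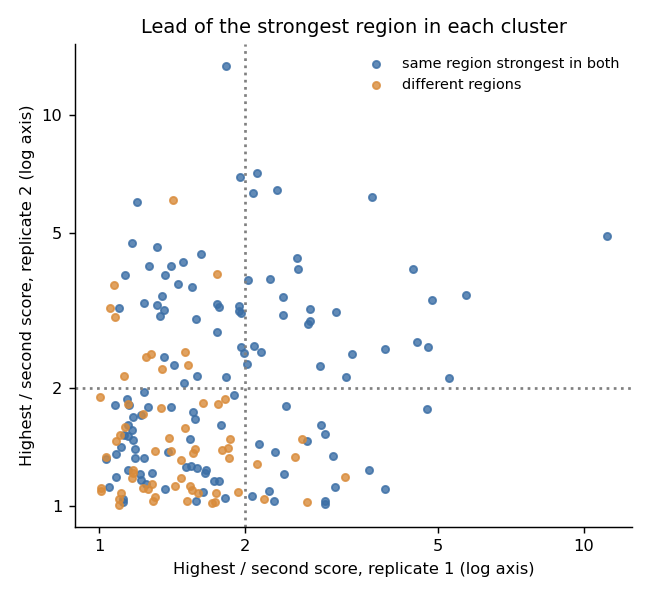
Ratio of the highest to the second score in each of the 185 clusters, in replicate 1 (x, log axis) and replicate 2 (y, log axis). Blue points are the 123 clusters with the same strongest region in both replicates, and the dotted lines mark a ratio of 2; most clusters lie under 2 on at least 1 axis.

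The largest cluster lay on chromosome 18 from 55133508 to 55157669, with 8 regions and no dominant member. In genome order the scores in replicate 1 were 50.3, 63.5, 210.1, 179.95, 85.9, 80.9, 167 and 96.6. In replicate 2 they were 65.1, 76.1, 316, 373, 203, 73.9, 252 and 50.6. The third region (55137822 to 55140322) was highest in replicate 1 and the fourth (55142739 to 55143631) in replicate 2, each leading by 1.17 or 1.18 times. Gaps ran from 1.74 to 5.98 kb, and the members covered 47.5% of the 24.2 kb span. The third region is 2501 bp wide and joins 3 replicate 2 peaks, and the seventh is 2925 bp wide and joins 2. Only the third and the fourth region were in the highest score decile, and only in replicate 2.

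Of the 6 clusters with 5 regions, the one with the strongest member was on chromosome 6 from 52166605 to 52183831. Its central region (52175380 to 52177446) scored 711 in replicate 1 and 1418 in replicate 2, at ranks 69 and 50. Its neighbours scored 72.2, 230.15, 57.4 and 50.7 in replicate 1 and 367, 451, 89.4 and 56.4 in replicate 2. The central region led by 3.09 and 3.15 times, so here, unlike in the cluster on chromosome 18, 1 member stood well above the rest in both libraries. The first region joined 2 replicate 2 peaks, and 2 further peaks of replicate 2 alone lay in the span.

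The other cluster of 5 regions on chromosome 6, from 51068924 to 51096959, had no shared leader. Its scores in order were 68.7, 72.7, 58.6, 220.1 and 158 in replicate 1 and 63.8, 537, 119, 289.6 and 359 in replicate 2. The second region was the highest in replicate 2 and among the lower ones in replicate 1. A further cluster of 3 began 24.2 kb beyond it.

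On chromosome 13 there were 2 clusters of 5. From 53283974 to 53301393, replicate 1 scores were 116, 144, 82.9, 319 and 203, and replicate 2 scores were 65.2, 86.3, 132, 439 and 253. The fourth region led in both. From 32117821 to 32147811, scores were 67.8, 199, 109, 100.5 and 93.2 in replicate 1 and 377, 395, 89.2, 139 and 176 in replicate 2. Its second region led in both, by 1.82 times in replicate 1 and by only 1.05 times in replicate 2. This was the longest cluster, at 29.99 kb, with gaps of 5.95 to 8.20 kb.

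The remaining clusters of 5 were led by an end member. On chromosome 8 from 129732744 to 129751019, scores were 86.4, 239.6, 154, 92.8 and 269.8 in replicate 1 and 87.2, 318, 51.9, 149 and 484 in replicate 2. On chromosome 4 from 105764348 to 105782582 they were 174, 67.1, 97.9, 56.9 and 156 in replicate 1 and 178, 129.6, 134, 174 and 51.1 in replicate 2. The chromosome 4 cluster was the weakest of those with 5 or more regions, its best member standing at percentile 27.7, and its last region was strong in replicate 1 relative to its neighbours and weakest in replicate 2.

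**Figure D5:**
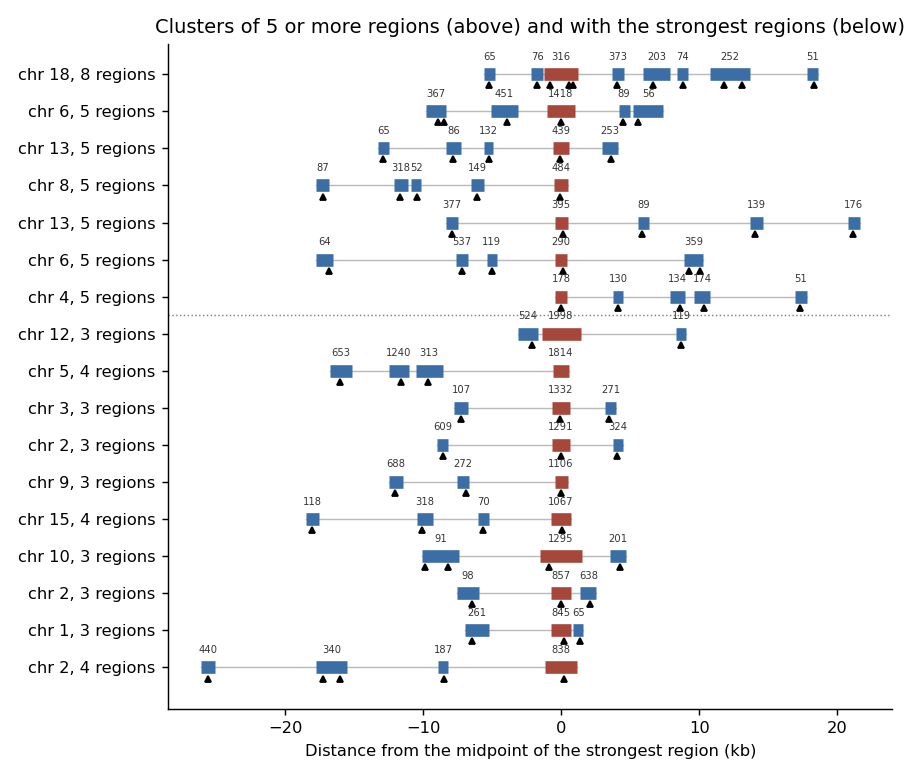
Layout of the 7 clusters of 5 or more regions (above the dotted line) and the 10 other clusters with the strongest members (below), as distance in kb from the midpoint of the strongest region (red), with other regions in blue drawn to scale. Small numbers are replicate 2 scores and black triangles are listed 1 bp positions; the red regions on chromosomes 12 and 5 below the line, at 1998 and 1814, carry no triangle.

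Among smaller clusters, the 10 with the strongest members were mostly made of 1 very high region and weaker neighbours. First came chromosome 12 from 37516997 to 37529177, whose middle region (37518729 to 37521556) scored 935 in replicate 1 and 1998 in replicate 2. Its neighbours scored 415 and 76.1 in replicate 1 and 524 and 119 in replicate 2. Only 243 bp separated the middle region from the first.

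Next was a cluster of 4 on chromosome 5 between 132543267 and 132560630, which scored 310.0, 364, 236 and 977 in replicate 1 and 653, 1239.7, 313 and 1814 in replicate 2. It was the most uniformly strong of these, since its weakest member stood at percentile 12.7 and its second region at 2.08. The nearest replicated region outside was 121 kb away.

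In the next clusters some neighbours of the strongest member ranked very differently in the 2 libraries, in either direction. On chromosome 3 from 40296859 to 40308611, scores were 87.8, 981 and 70.9 in replicate 1 and 107, 1332 and 271 in replicate 2, a lead of 11.2 and 4.92 times. On chromosome 2 from 165557910 to 165571379 they were 126, 666 and 50.9 against 609, 1291 and 324 in replicate 2, a lead of 5.28 and 2.12 times. On chromosome 2 from 115210524 to 115220632 scores were 202, 614 and 76.5 in replicate 1 and 98.3, 857 and 638 in replicate 2. Its first region was thus the higher neighbour in replicate 1 and its last region in replicate 2.

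The same member was highest in both libraries in 9 of these 10 clusters, against 123 of all 185 clusters (66.5%). The 10 were chosen for a member with low ranks in both lists, so this agreement is largely built into the choice. On chromosome 9 from 47082714 to 47095648, the last region scored 769 and 1106 in replicates 1 and 2, ahead of 268 and 688 for the first. On chromosome 15 from 50511555 to 50530712, the last of 4 regions scored 651 and 1067, ahead of at most 134 and 318. On chromosome 10 from 87321387 to 87336124, the middle region, 3055 bp wide, scored 472 and 1295, ahead of at most 203 and 201. On chromosome 1 from 73804568 to 73813105 the middle region scored 515 and 845, and a region only 151 bp from it scored 65.7 and 65.2. The exception was on chromosome 2 from 75771428 to 75798650, where the second and the fourth region were level in replicate 1, at 499 and 496, and apart in replicate 2, at 340.3 and 838.

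Of 185 clusters, 99 (53.5%) had no region in the highest score decile of replicate 1, 67 (36.2%) had none in replicate 2 and 55 (29.7%) had none in either. Of all autosomal replicated regions only 14.4% and 23.1% were in that decile in replicates 1 and 2. The sets outside were not counted in this way, so these shares do not mark clusters as weak. In 14 clusters (7.57%) every member was in the weaker 50% of autosomal replicated regions by summed rank, and in 34 (18.4%) every member was in the stronger 50%. For clusters of 3 these shares were 8.45% (4.90 to 14.2%) and 19.7% (14.0 to 27.0%), against 13.4% and 13.0% of the sets outside. The weakest lay on chromosome 3 between 40095126 and 40111380 and scored 79.1, 60.6 and 53.8 in replicate 1 and 72.4, 76.1 and 65.0 in replicate 2. The cluster whose weakest member was strongest lay on chromosome 5 from 75012334 to 75018226, with scores of 311, 385 and 269 in replicate 1 and 290.45, 746 and 380.5 in replicate 2.

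The authors also deposited a list of 10625 positions of 1 bp, of which 10496 are on autosomes. All 10496 lay inside replicated regions, and 651 of them (6.20%) lay in clustered regions. Of the 608 clustered regions 606 (99.7%) held a position, as did 99.7% of all autosomal replicated regions. In clusters 562 regions held 1 position, 43 held 2 and 1 held 3. Regions with 2 or more thus made up 7.24% of clustered regions (44 of 608, 5.43 to 9.58%), against 3.62% of all autosomal regions.

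Positions followed replicate 2 peaks closely. Regions joining more than 1 replicate 2 peak were 7.40% of clustered regions (45 of 608), against 3.64% of all autosomal regions, and the 654 replicate 2 peaks in clustered regions carried 651 positions. The list adds little beyond those peaks on how often a region held 2 positions. Regions with 2 or more were wide, with a median of 1643 bp against 927.5 bp for those with 1, and their positions lay a median of 802 bp apart (322 to 1667 bp). Of the 651 positions 634 (97.4%) also fell inside a replicate 1 peak.

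By cluster, 143 had as many positions as regions, 40 had more and 2 had fewer. Counts per cluster were 2 in 1 cluster, 3 in 116, 4 in 48, 5 in 16, 6 in 3 and 11 in 1. The cluster with 11 was the one of 8 regions on chromosome 18. The third region there held positions at 55138284, 55139638 and 55139960, the only clustered region with 3. Its seventh held 55150885 and 55152180, and the other 6 regions held 1 each.

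Neighbouring positions within clusters were a median of 4.10 kb apart (quartiles 1.85 and 6.79 kb), and 50 of 466 distances (10.7%) were under 1 kb. Where a region had a single position, it lay a median of 82.5 bp from the region's midpoint in clusters and 69.5 bp outside. It fell in the central part of the region (from 33.3 to 66.7% of its length) in 79.4% of clustered regions and 79.5% of those outside. The farthest was on chromosome 3 in the region from 55585318 to 55588576, where position 55588264 lay 1317 bp from the midpoint.

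Both clustered regions without a position were the strongest members named first above. They are the region on chromosome 12 from 37518729 to 37521556 and the one on chromosome 5 from 132559416 to 132560630, and in both clusters every other region had a position. Another region, on chromosome 6 from 51121131 to 51123810, joined 2 replicate 2 peaks and held only 1 position, at 51123165. In the cluster on chromosome 6 from 52166605 to 52183831, the central region did carry a position, at 52176412, 1 of 6 there. The sources used here do not say how the list was made, and the reason for the missing positions was not tested.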

How the data were processed

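The members and the descriptions below were chosen with earlier results of these data known. Fixation was in 1% formaldehyde (30 minutes) and dissociation in trypsin (5 minutes), fragments were 200 to 600 bp and each pulldown took 400 μg of chromatin, per the labels' protocols. The submitters' processing notes name build mm9 and, without roles, MACS 1.4.2, Bowtie 0.12.8, bedtools 2.16.2, CASAVA 1.7 and CASAVA 1.8.2. How the caller was set and whether it used the input is not given in the sources here. The authors' lists gave 14753 peaks for replicate 1 and 25027 for replicate 2, and the deposited score of each peak is the caller's own, from 50.0 and 50.01 upward. The other deposited list holds positions with no score.

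Overlapping peaks were joined across replicates, with a minimum overlap of 1 bp, and runs were built from midpoints with Python 3.11.15, numpy 2.4.6, pandas 2.3.3 and scipy 1.17.1. Figures were drawn with matplotlib 3.10.9. The labels do not say that the replicates came from separate litters, so their differences may be technical. Ranks are within each full list, and percentiles are over autosomal replicated regions. Intervals printed beside shares are 95% Wilson intervals, and some shares are given without one. For medians, exact binomial intervals of order statistics were used only to compare settings and are not printed. Quartiles describe spread. No test across samples was possible, and none was made across regions. The clusters described singly are those with 5 or more regions, the 10 others with the lowest rank sum, the 3 tightest, the 3 widest spaced, and 3 on either side of the 10 kb limit. Others named were chosen after their values were seen. The steps were tested on simulated lists with well separated clusters and the same order of scores in both replicates. Gaps close to the limit, nearly adjacent regions and replicates that disagree on the strongest member were not simulated. The planned gene and motif descriptions were not run, because the annotation used here is of another build (GRCm38) and positions were not converted.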

Additional observations from a re-analysis of the deposited data

How the results depend on the processing

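No paired analysis was possible because no peak list of the input, whose libraries carry the same replicate numbers, was analysed here. Of 76 values recomputed under other settings, 48 stayed within the interval of the reported value or, for counts, within 1.5 times, and 28 did not. A 5 kb gap gave 54 clusters and a 25 kb gap 485, which change the rule itself, with 176 and 1786 regions in them. They numbered 53 (172 regions) in the best 50% of each list, 117 (378) with equal numbers of best peaks and 115 (379) with reciprocal overlap of 50%, all of which leave fewer regions. Peaks of a single list gave 335 clusters with 1125 peaks without replicate 2, and 1127 with 4177 without replicate 1. Median spacing was 2.78 kb and 9.26 kb with the 5 and 25 kb gaps, 5.51 kb after merging regions under 1 kb apart, 5.37 kb in the best 50%, and 3.48 to 4.51 kb in single lists. The replicates named the same strongest member in 56.5% of clusters with 25 kb gaps, which hold more members, and in 49.1% in the best 50%; the cause of the second was not tested. The median lead in replicate 2 was 1.47 times with 5 kb gaps and 1.44 times in the best 50%. The median percentile of clustered regions was 47.9 in the best 50%, against 42.05 as reported. The first of these percentiles was taken among the regions of the best 50% alone, so the 2 are on different scales. The causes of these shifts were not tested. Every clustered region held a position (100%) with 5 kb gaps and after merging. Under both settings the 2 clustered regions reported without a position were no longer in any cluster. In single lists, which include unshared peaks, 48.6 to 78.2% of clustered peaks held a position. Unknown read depth limits any statement on weak or unshared peaks. The planned gene and motif alternatives were not run.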

Other observations

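The values here were picked out after they were seen and were not tested. A very weak cluster and a cluster with 1 very strong member were neighbours on chromosome 3. The weakest of all clusters, from 40095126 to 40111380, ended 185 kb before the cluster with the largest lead in replicate 1, from 40296859 to 40308611.

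The largest lead in replicate 2 was on chromosome 17 from 63185688 to 63197352. Its first region scored 766 in replicate 2, 13.4 times the second-highest score of 57.2, and 131 in replicate 1, 1.83 times the second-highest score of 71.6. That region also held 2 listed positions. On chromosome 7 from 103888488 to 103895003 the last region led by 7.13 times in replicate 2 (624 against 87.6) and by 2.11 times in replicate 1 (182 against 86.1). On chromosome 13 from 56260270 to 56272709 the first region scored 941 in replicate 2 and 388 in replicate 1, with leads of 6.94 and 1.95 times.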
